A study of Homo sapiens with 18 samples.

Results

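Adhesion G protein-coupled receptors (adhesion GPCRs) were followed in OVCAR-3 cells treated with the bromodomain inhibitors i-BET858 and i-BET151. The 10 receptors ADGRF1, ADGRF4, ADGRG1, ADGRG6, ADGRL1, ADGRL2, ADGRL3, ADGRE5, ADGRA3 and ADGRV1 were taken by name from the 58825 genes of the count tables, and belong to a family of 33 genes. ADGRF1 was chosen by its large fall after 24 h in these libraries, so its values at 24 h are given as a description. OVCAR-3 is an established cell line of high-grade serous ovarian carcinoma, grown here in RPMI medium in multi-well plates and treated in stripped medium. There were 6 groups of 3 biological replicates, namely DMSO control and either inhibitor at 1 µM, for 4 h or for 24 h. All groups were the same line in the same medium, and they differed in the compound and in the time. Poly-A RNA was sequenced, and the deposited values were reads counted per gene.

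The 18 libraries held 27323969 to 46299994 counts (median 32267434). Replicate 3 stood apart from replicates 1 and 2 in every group, with 17817 to 20642 genes detected against 23674 to 24947, so changes are also given without it and within it. All 8 markers of serous ovarian epithelium were present, with a summed level of 6618 to 11930 CPM (the count of a gene relative to its library's size), whereas the 4 immune markers summed to at most 1.69 CPM. Of the 4 stromal markers, which summed to 21.4 to 50.5 CPM, COL1A1 held 21.1 to 46.6 CPM and DCN reached at most 0.0730 CPM. The 3 endothelial markers summed to 0.578 to 5.37 CPM. A count of 0 allowed a level of up to 0.0648 to 0.110 CPM, taking 3 counts as the limit, which covers counting error only.

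Adhesion GPCRs carry a long extracellular region of adhesion domains ahead of their transmembrane helices. In most of them a domain next to the membrane, the GAIN domain, cuts the protein by itself at the GPS motif, and the stretch that remains on the membrane part acts as a tethered agonist for G proteins. The family reads contacts with the matrix and with neighbouring cells, and several members are known for roles in tumour cell adhesion and migration. The inhibitors displace BET proteins, which bind acetylated histones and promote transcription, from chromatin.

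ADGRF4 was lower with both inhibitors at both times, and ADGRV1 was higher with both at 24 h, while ADGRL2, ADGRL3, ADGRE5 and ADGRA3 moved by less than 2-fold against DMSO throughout. A call needed at least a 2-fold difference together with a p, adjusted over all genes tested by the method of Benjamini and Hochberg, under 0.05 in edgeR's quasi-likelihood test. At 4 h, ADGRF1 and ADGRF4 were down-regulated by both inhibitors. No receptor was called higher at 4 h by edgeR or DESeq2. At an unadjusted p under 0.05 there was 1 higher receptor with each inhibitor, ADGRE5 with i-BET858 and ADGRV1 with i-BET151. No share of all genes is given at that unadjusted threshold. ADGRF1 and ADGRF4 thus made 2 of 10 lower with i-BET858, where 7.00% of 17192 genes were called lower and 7.08% higher. They also made 2 of 10 lower with i-BET151, where 2.97% of genes were called lower and 4.12% higher. At 24 h, 3 of the 9 tested receptors were lower with i-BET858 (ADGRF4, ADGRG6 and ADGRL1) and 1 was higher (ADGRV1), where 11.2% of 17157 genes were called lower and 7.65% higher. With i-BET151 at 24 h, 2 of 9 were lower (ADGRF4 and ADGRG1) and 1 was higher (ADGRV1), where 8.09% and 5.59% of genes were called. Each inhibitor was compared with the same DMSO libraries, so the values of the inhibitors are not independent of each other. For bulk RNA, a lower level per cell and fewer cells that carry the transcript cannot be told apart.

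The adjusted p alone passed for 3 of 10 receptors with i-BET858 at 4 h, beside 30.8% of all genes, and for 4 of 10 with i-BET151, beside 16.2%. At 24 h it passed for 7 of 9 with i-BET858 (5 lower and 2 higher), beside 41.7% of all genes, and for 7 of 9 with i-BET151 (4 lower and 3 higher), beside 33.8%. These counts and shares are without the replicate number as a block. With that block, ADGRG1 (adjusted p = 0.0486), ADGRL3 (0.0274), ADGRE5 (0.0210) and ADGRV1 (0.0269) also passed with i-BET858 at 4 h. ADGRG6 (0.00362) and ADGRV1 (0.0145) were added with i-BET151 at 4 h. At 24 h the block added ADGRA3 (0.00174) with i-BET858 and ADGRG6 (0.0465) with i-BET151. No share of all genes is given with the block, so these added passes cannot be set against one. The median log2 fold change of the receptors was −0.18 and −0.28 at 4 h and −0.49 and −0.46 at 24 h for i-BET858 and i-BET151. Over all genes tested, the median lay between −0.01 and 0.02.

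**Figure D1:**
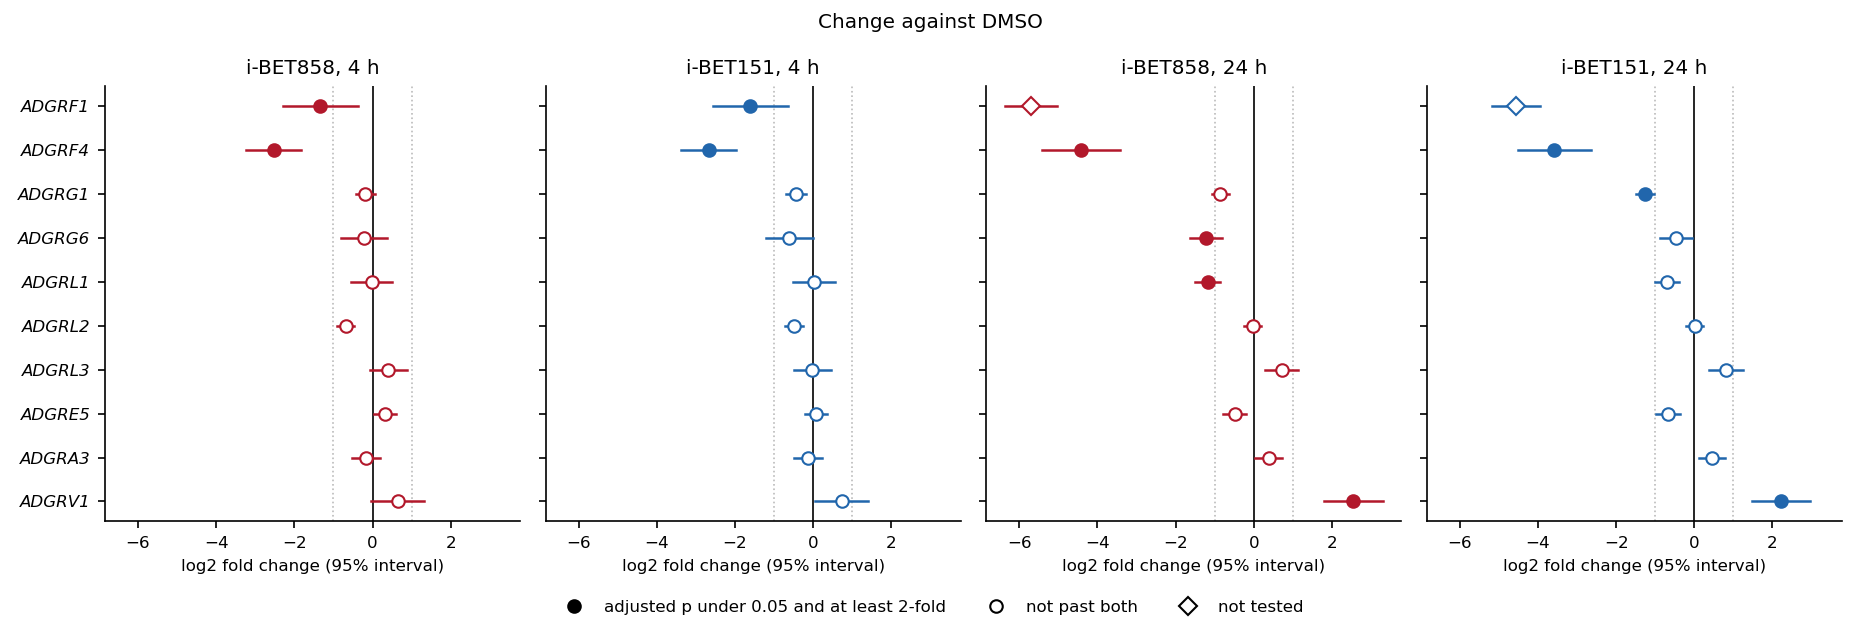
Log2 fold change of each receptor against DMSO (horizontal axis) with its 95% interval, for both inhibitors at 4 and 24 h. Filled circles passed the adjusted p and the 2-fold threshold (dotted lines), open circles did not pass both, and diamonds mark ADGRF1 at 24 h, which was not tested. ADGRF1 and ADGRF4 lie furthest to the left in every panel, down to −5.70, and ADGRV1 lies furthest to the right at 24 h with 2.55 and 2.21.

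In untreated cells ADGRG1 was the most abundant receptor. Levels between genes were compared as CPM per kilobase of all exons of the gene together. In DMSO at 4 h, ADGRG1 held 73.7 ± 2.46 CPM per kb (mean ± SD, n = 3), followed by ADGRL2 with 14.7. ADGRA3 (8.56), ADGRL1 (7.96) and ADGRE5 (7.67) came next, with library ranges that overlapped from one to the next. ADGRG6 (3.22) stood above ADGRF1 (2.22), ADGRL3 (1.74) and ADGRF4 (1.64), and the ranges of these last 3 overlapped from one to the next. ADGRV1 was lowest with 0.141 CPM per kb.

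In DMSO at 24 h the order was ADGRG1 (56.6), ADGRL2 (11.9), ADGRL1 (8.45), ADGRA3 (8.08), ADGRE5 (6.89), ADGRG6 (2.93), ADGRF1 (2.29), ADGRF4 (1.71), ADGRL3 (1.46) and ADGRV1 (0.138). The ranges of ADGRL1, ADGRA3 and ADGRE5 overlapped from one to the next, as did those of ADGRG6 with ADGRF1 and of ADGRF4 with ADGRL3.

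After 24 h with i-BET858 the order differed from this DMSO group in its middle and at its lower end. ADGRG1 still held the most with 32.2 CPM per kb, followed by ADGRL2 (12.0) and ADGRA3 (10.8), whose ranges overlapped. ADGRL1 (3.83) now lay below ADGRE5 (5.05) with no overlap, and ADGRL3 (2.46) came next, ahead of ADGRG6 (1.29). ADGRV1 (0.827) had passed ADGRF4 (0.0819) and ADGRF1 (0.0442), which were now the lowest and overlapped with each other. The order after 24 h with i-BET151 had the same last 3, with 0.646, 0.144 and 0.0983 CPM per kb, while ADGRL1 (5.28) and ADGRE5 (4.41) overlapped there. In DMSO, none of the other 9 receptors was called between 4 and 24 h by edgeR over all 18 libraries, where 0.00551% of 18154 genes were called and 0.0386% passed on the adjusted p. Without adjustment, ADGRG1 and ADGRL2 had a p under 0.05 between these DMSO groups, with log2 differences of −0.38 (adjusted p = 0.213) and −0.31 (adjusted p = 0.286), and DESeq2 called 0 receptors. The DMSO means of ADGRF1, 27.5 CPM at 4 h and 28.3 CPM at 24 h, are a description. With the replicate number as a block, the adjusted p of ADGRG1 was 0.0473.

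**Figure D2:**
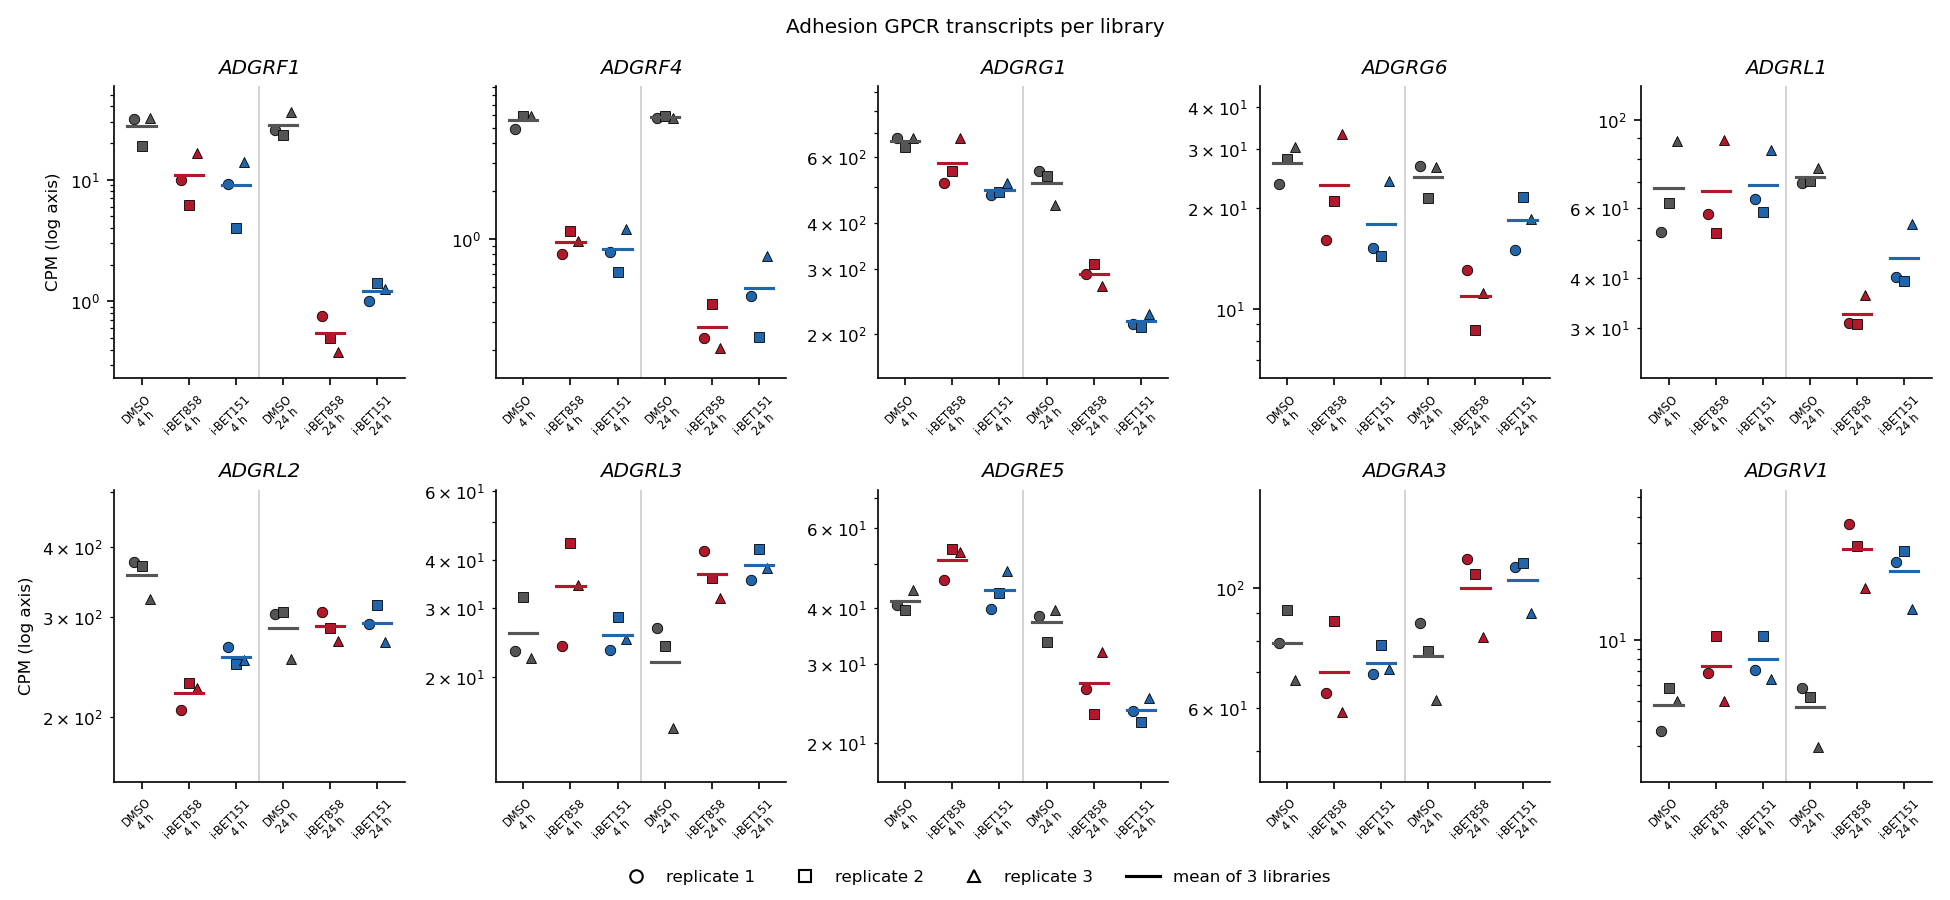
CPM of the 10 receptors in each of the 18 libraries on log axes, by condition. Symbols are replicates and bars are means of 3 libraries. The ADGRF1 libraries at 24 h sit at 0.380 to 1.40 CPM with the inhibitors and at 23.2 to 36.0 CPM with DMSO, while the ADGRV1 libraries sit at 14.1 to 37.1 and 2.96 to 5.78 CPM.

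ADGRF1, formerly GPR110, is a receptor for the lipid synaptamide in the nervous system and is also expressed in epithelial tumours. It lies at chr6:46997708-47042350 on the minus strand (GRCh38, GENCODE 44). The 250 bases upstream of its RefSeq start (GRCh38.p14) are shown with those of ADGRF4 and ADGRV1, since these 3 moved furthest from DMSO at 24 h among the 10 receptors. The ADGRF1 window is chr6:47042333-47042582 (minus strand), the ADGRF4 window chr6:47698330-47698579 (plus strand) and the ADGRV1 window chr5:90558547-90558796 (plus strand). The end of each window overlaps the first exon of a GENCODE transcript, and the RefSeq starts of ADGRF1, ADGRF4 and ADGRV1 lie within the GENCODE genes. The capitals mark matches on either strand to 6 motifs that were searched on both strands, namely the TATA box (TATAAA), the GC box (GGGCGG), the E-box (CACGTG), the AP-1 site (TGANTCA), the CCAAT box and the TEAD site (GGAATG), of which none overlapped another here.
ADGRF1: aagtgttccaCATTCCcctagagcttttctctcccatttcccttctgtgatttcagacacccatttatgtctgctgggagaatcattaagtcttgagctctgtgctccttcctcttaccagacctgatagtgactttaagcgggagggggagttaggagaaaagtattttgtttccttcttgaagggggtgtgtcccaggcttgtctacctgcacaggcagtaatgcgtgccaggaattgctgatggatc
ADGRF4: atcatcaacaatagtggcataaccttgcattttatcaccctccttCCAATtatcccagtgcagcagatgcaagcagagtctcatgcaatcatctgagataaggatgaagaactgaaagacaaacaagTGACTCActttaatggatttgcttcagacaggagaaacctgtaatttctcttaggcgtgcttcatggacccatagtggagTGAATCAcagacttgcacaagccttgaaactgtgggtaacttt
ADGRV1: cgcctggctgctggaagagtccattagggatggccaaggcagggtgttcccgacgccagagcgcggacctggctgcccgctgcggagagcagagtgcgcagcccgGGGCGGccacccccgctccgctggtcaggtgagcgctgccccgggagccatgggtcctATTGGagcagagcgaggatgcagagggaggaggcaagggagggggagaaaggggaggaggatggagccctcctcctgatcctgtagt

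The ADGRF1 window held 1 match, GGAATG on the opposite strand 240 bases before the start, and its GC content was 47.6%. The ADGRF4 window, with 42.0% GC, held CCAAT at 205 bases and TGANTCA at 123 and 43 bases before the start. The ADGRV1 window, with 68.4% GC, held GGGCGG at 145 bases and CCAAT on the opposite strand at 87 bases. Of 34943 windows of the same length in the table, 11.9% held GGAATG, 32.0% CCAAT, 6.59% TGANTCA, 42.5% GGGCGG, 10.8% TATAAA and 6.32% CACGTG. The median GC content of all windows was 58.0%. The table had windows for 8 of the 10 receptors, and a match describes the letters only.

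At 4 h, ADGRF1 held 31.7, 18.7 and 32.2 CPM in DMSO replicates 1 to 3, 9.89, 6.20 and 16.4 CPM with i-BET858 and 9.13, 3.96 and 14.0 CPM with i-BET151. Every treated library lay below every DMSO library, and replicate 2 was the lowest of its group in all 3 groups. ADGRF1 was 2.53-fold lower with i-BET858 (log2 −1.34 ± 0.44 (SE), adjusted p = 0.0366) and 3.04-fold lower with i-BET151 (log2 −1.60 ± 0.44 (SE), adjusted p = 0.0284). Replicates 1 and 2 alone gave −1.65 and −1.95, and replicate 3 gave −0.97 and −1.20. Without DMSO replicate 1 or 3, or replicate 1 or 2 of the inhibitor, the adjusted p rose above 0.05, to at most 0.130 for i-BET858 and 0.0932 for i-BET151.

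At 24 h, ADGRF1 held 25.8, 23.2 and 36.0 CPM in DMSO, close to the level at 4 h. It held 0.762, 0.500 and 0.380 CPM with i-BET858, from 35, 18 and 13 counts, and 1.00, 1.40 and 1.25 CPM with i-BET151. The lowest DMSO library was thus far above the highest treated library, and the i-BET858 libraries lay below those of i-BET151. The mean difference from DMSO was 52.0-fold with i-BET858 (log2 −5.70 ± 0.30 (SE)) and 23.7-fold with i-BET151 (log2 −4.57 ± 0.28 (SE)). These values chose ADGRF1 and carry no test. Replicates 1 and 2 alone gave log2 differences of −5.27 and −4.40, and replicate 3 gave −6.57 and −4.85.

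ADGRF4, formerly GPR115, is an orphan receptor of the same subfamily at chr6:47685864-47722021 on the plus strand. It held 4.88, 5.90 and 5.95 CPM in DMSO at 4 h, 0.803, 1.12 and 0.965 CPM with i-BET858 and 0.833, 0.618 and 1.15 CPM with i-BET151. It was 5.76-fold down-regulated with i-BET858 (log2 −2.53 ± 0.32 (SE), adjusted p = 1.44e-04) and 6.38-fold with i-BET151 (log2 −2.67 ± 0.32 (SE), adjusted p = 2.81e-04). The groups did not overlap, and the log2 difference was −2.62 and −2.37 within replicate 3, beside −2.48 and −2.89 in replicates 1 and 2.

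After 24 h, ADGRF4 held 5.75, 5.89 and 5.79 CPM in DMSO, 0.239, 0.389 and 0.205 CPM with i-BET858 and 0.439, 0.243 and 0.786 CPM with i-BET151. The treated libraries held only 7 to 27 counts. The transcript was 21.3-fold lower with i-BET858 (log2 −4.41 ± 0.45 (SE), adjusted p = 2.71e-05) and 12.0-fold lower with i-BET151 (log2 −3.58 ± 0.43 (SE), adjusted p = 1.26e-04). Replicate 3 gave −4.82 and −2.88, beside −4.26 and −4.08 in replicates 1 and 2. ADGRF4 was called against DMSO at both times under every alternative that tested it. It shares 77 exonic bases on the same strand with its neighbour ADGRF2, and reads on those bases could not be assigned to one of the genes.

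ADGRF1, ADGRF2 and ADGRF4 lie on chromosome 6, with the start of ADGRF2 at 614.137 kb and that of ADGRF4 at 643.514 kb from the start of ADGRF1. ADGRF2, a transcribed pseudogene in GENCODE, held 3.90, 3.71 and 2.57 CPM in DMSO and 0.839, 0.590 and 1.42 CPM with i-BET858 at 4 h. At 24 h it held 3.03, 3.67 and 0.509 CPM in DMSO and 0.0870, 0.0833 and 0 CPM with i-BET858. It was called lower in each comparison with DMSO, by log2 −1.82 (adjusted p = 0.0195) and −2.93 (adjusted p = 0.00433) at 4 h and −5.30 (adjusted p = 0.00189) and −2.77 (adjusted p = 0.0297) at 24 h, for i-BET858 and i-BET151. The i-BET151 libraries at 24 h held 0.146, 0.243 and 0.669 CPM, so replicate 3 lay above the DMSO library of the same number.

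Of the protein-coding genes that start within 500 kb of ADGRF1, TNFRSF21 (a death receptor), CD2AP (an adaptor of the actin cytoskeleton), CYP39A1 (an oxysterol hydroxylase) and SLC25A27 (a mitochondrial carrier) were tested at both times and none was called against DMSO. Of all genes, 7.00% were called lower and 7.08% higher with i-BET858 at 4 h, and 11.2% and 7.65% at 24 h. With i-BET151 the shares were 2.97% and 4.12% at 4 h, and 8.09% and 5.59% at 24 h. Among so few genes, the lack of a call is close to these shares. TNFRSF21 held 77.3, 77.9 and 90.8 CPM in DMSO at 24 h and 66.2, 61.3 and 86.6 CPM with i-BET858 (log2 −0.24, adjusted p = 0.220). CD2AP passed the adjusted p with i-BET858, with log2 −0.46 (adjusted p = 0.0223) at 4 h and −0.38 (adjusted p = 0.0183) at 24 h. TDRD6 was called higher with i-BET858 at 4 h (log2 3.88 ± 1.2 (SE), adjusted p = 0.0290), from 3, 2 and 0 counts in DMSO and 15, 25 and 32 counts with i-BET858. PLA2G7, ANKRD66, MEP1A and ADGRF5 were below the filter on low counts at both times, and TDRD6 at 24 h.

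**Figure D3:**
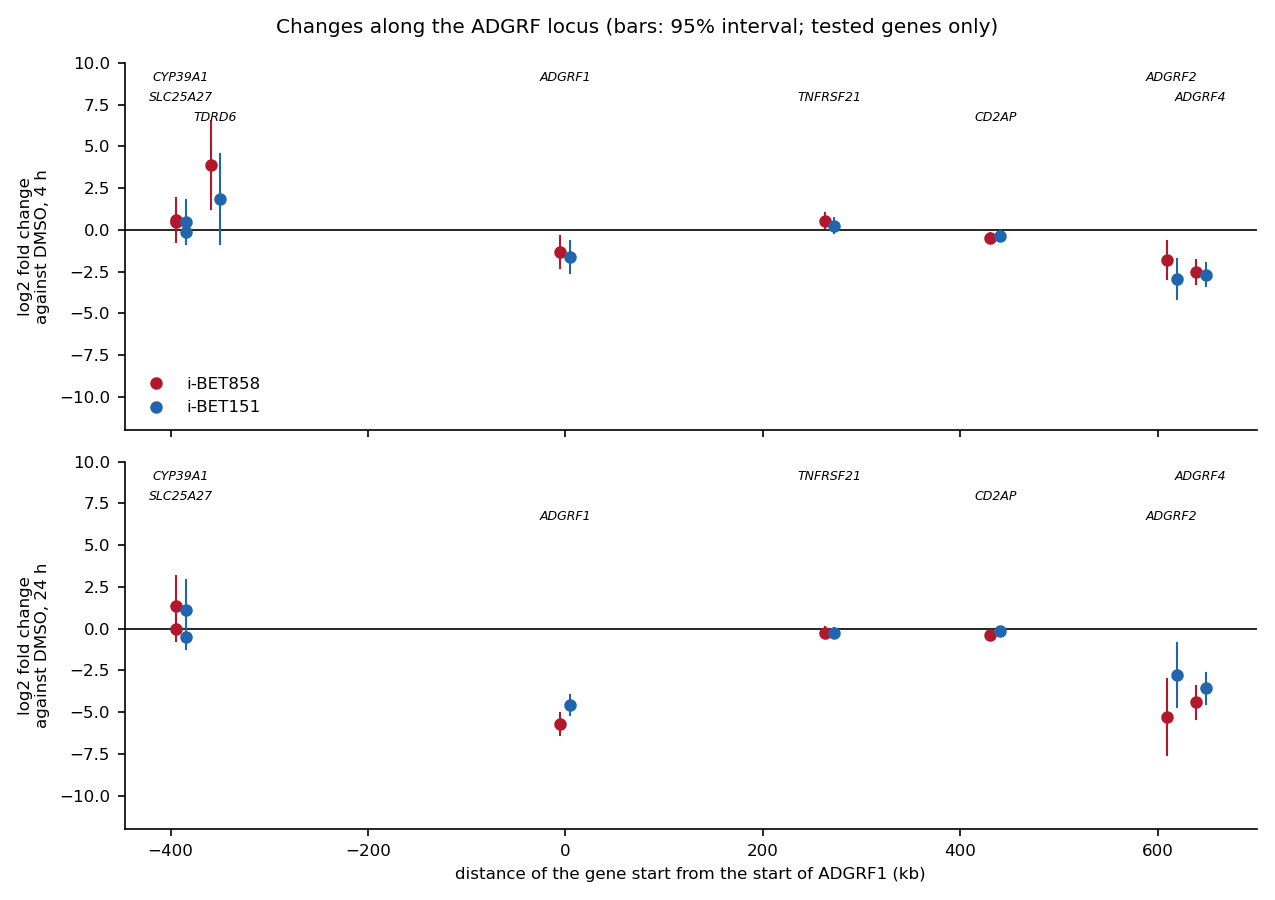
Log2 fold change against DMSO with its 95% interval (vertical axis) for tested protein-coding genes within 500 kb of ADGRF1 and for ADGRF2 and ADGRF4, by the distance of their start from that of ADGRF1 in kb. Red is i-BET858, blue is i-BET151, the upper panel is 4 h and the lower panel 24 h. At 24 h the ADGRF genes lie between −5.70 and −2.77, while TNFRSF21 and CD2AP, which lie between them, lie between −0.38 and −0.13.

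ADGRG1, formerly GPR56, is a receptor for collagen III and for transglutaminase 2 that is needed for the development of the cerebral cortex. It lies at chr16:57610652-57665580. At 4 h it held 675, 638 and 678 CPM in DMSO, 512, 552 and 678 CPM with i-BET858 and 474, 484 and 513 CPM with i-BET151. The i-BET858 libraries overlapped with DMSO through replicate 3 (log2 −0.19, adjusted p = 0.238), while those of i-BET151 lay below DMSO (log2 −0.44 ± 0.11 (SE), adjusted p = 0.0207). Without DMSO replicate 1 or 3, or i-BET151 replicate 1 or 2, that adjusted p rose above 0.05, to at most 0.0732, and with the replicate number as a block that of i-BET858 was 0.0486. Without replicate 3 the values were −0.30 (i-BET858, adjusted p = 0.0292) and −0.46 (i-BET151), while replicate 3 held 678 CPM in both DMSO and i-BET858 and gave −0.40 with i-BET151. At 24 h the levels were 553, 533 and 445 CPM in DMSO, 291, 309 and 270 CPM with i-BET858 and 213, 210 and 226 CPM with i-BET151. ADGRG1 fell with both, by log2 −0.85 ± 0.10 (SE, adjusted p = 8.02e-05) with i-BET858, which was below 2-fold, and 2.39-fold (log2 −1.26 ± 0.10 (SE), adjusted p = 1.22e-05) with i-BET151. The values in replicate 3 were −0.72 and −0.98, beside −0.89 and −1.40 in replicates 1 and 2.

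ADGRG6, formerly GPR126, binds collagen IV and laminins and drives myelination by Schwann cells. It lies at chr6:142301854-142446266. Its levels at 4 h were 23.6, 27.9 and 30.3 CPM in DMSO, 16.1, 21.0 and 33.2 CPM with i-BET858 and 15.2, 14.4 and 24.1 CPM with i-BET151, and the groups overlapped. The log2 difference was −0.21 ± 0.27 (SE, adjusted p = 0.603) with i-BET858 and −0.61 ± 0.27 (SE, adjusted p = 0.160) with i-BET151, and the latter's adjusted p was 0.00362 with the replicate number as a block. Without replicate 3 they were −0.48 (adjusted p = 0.0463) and −0.81 (adjusted p = 0.00558), and replicate 3 gave 0.13, of the opposite sign, and −0.33. At 24 h it held 26.6, 21.3 and 26.4 CPM in DMSO and 13.1, 8.61 and 11.1 CPM with i-BET858, which did not overlap. ADGRG6 was 2.33-fold lower with i-BET858 at 24 h (log2 −1.22 ± 0.19 (SE), adjusted p = 4.49e-04), and by −1.17 in replicates 1 and 2 and −1.25 in replicate 3. With i-BET151 at 24 h it held 14.9, 21.6 and 18.5 CPM (log2 −0.46 ± 0.19 (SE), adjusted p = 0.0817), and the adjusted p was 0.0465 with the replicate number as a block.

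The latrophilins ADGRL1, ADGRL2 and ADGRL3 bind teneurins and FLRT proteins on neighbouring cells and are best known at synapses. Their transcripts changed in different directions and at different times. ADGRL1, at chr19:14147743-14206187, held 52.3, 61.8 and 88.6 CPM in DMSO at 4 h and overlapped fully with i-BET858 (58.0, 52.0 and 88.9 CPM) and with i-BET151 (63.4, 58.6 and 83.8 CPM). Replicate 3 was the highest of each of these groups. The log2 differences of −0.02 and 0.02 (adjusted p = 0.959 and 0.968) were −0.05 and 0.09 in replicates 1 and 2 and 0.0047 and −0.08 in replicate 3. At 24 h ADGRL1 held 69.3, 70.3 and 75.5 CPM in DMSO, 30.7, 30.7 and 36.3 CPM with i-BET858 and 40.3, 39.3 and 54.8 CPM with i-BET151. It was 2.27-fold lower with i-BET858 (log2 −1.18 ± 0.14 (SE), adjusted p = 9.19e-05), and fell by 0.70 on the log2 scale with i-BET151 (SE 0.14, adjusted p = 0.00330). The groups did not overlap, and replicate 3 gave −1.06 and −0.46 beside −1.21 and −0.85 in the others.

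ADGRL2, at chr1:81306147-81993932, fell at 4 h and did not pass the test at 24 h. At 4 h it held 376, 370 and 323 CPM in DMSO, 206, 230 and 226 CPM with i-BET858 and 266, 248 and 252 CPM with i-BET151. No treated library reached a DMSO library, and the fall was −0.69 ± 0.10 (SE) in log2 with i-BET858 (adjusted p = 4.31e-04) and −0.48 ± 0.10 (SE) with i-BET151 (adjusted p = 0.00821). Replicates 1 and 2 gave −0.78 and −0.55, and replicate 3 gave −0.52 and −0.36. At 24 h it held 304, 307 and 253 CPM in DMSO, 307, 288 and 273 CPM with i-BET858 and 292, 316 and 272 CPM with i-BET151. The log2 differences at 24 h were −0.03 with a 95% interval of −0.25 to 0.19 and 0.01 with an interval of −0.22 to 0.23. They were −0.07 and −0.04 in replicates 1 and 2, and 0.11 and 0.10, of the opposite sign, in replicate 3.

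ADGRL3, at chr4:61200326-62078335, was instead higher at 24 h. At 4 h it held 23.3, 32.1 and 22.4 CPM in DMSO, 24.0, 44.1 and 34.4 CPM with i-BET858 and 23.5, 28.5 and 25.1 CPM with i-BET151, and all groups overlapped. At 24 h it held 26.6, 24.0 and 14.8 CPM in DMSO, 42.0, 36.0 and 32.0 CPM with i-BET858 and 35.5, 42.7 and 38.1 CPM with i-BET151. Every treated library was above every DMSO library. The rise was 0.71 ± 0.19 (SE) in log2 with i-BET858 (adjusted p = 0.0120) and 0.81 ± 0.19 (SE) with i-BET151 (adjusted p = 0.00796), both below 2-fold. It was 0.59 and 0.58 in replicates 1 and 2 and 1.11 and 1.36 in replicate 3, whose DMSO library was the lowest. Without i-BET858 replicate 1 the adjusted p of i-BET858 was 0.0559, and at 4 h it was 0.197 (log2 0.40), or 0.0274 with the replicate number as a block. At 4 h replicates 1 and 2 gave 0.30 and −0.10 for i-BET858 and i-BET151, and replicate 3 gave 0.62 and 0.16.

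ADGRE5, formerly CD97, is carried by leukocytes and many carcinomas and binds the complement regulator CD55. It lies at chr19:14380501-14408725. At 4 h it held 40.6, 39.6 and 43.7 CPM in DMSO, 46.2, 53.8 and 53.1 CPM with i-BET858 and 39.8, 43.0 and 48.3 CPM with i-BET151. The i-BET858 libraries all lay above DMSO, but the adjusted p was 0.0885 (log2 0.31 ± 0.13 (SE)), and it was 0.0210 with the replicate number as a block. Replicates 1 and 2 gave 0.32 and 0.04 at 4 h for i-BET858 and i-BET151, and replicate 3 gave 0.28 and 0.14. At 24 h ADGRE5 held 38.2, 33.5 and 39.5 CPM in DMSO, 26.4, 23.3 and 31.9 CPM with i-BET858 and 23.6, 22.3 and 25.2 CPM with i-BET151. It fell by 0.49 in log2 with i-BET858 (SE 0.14, adjusted p = 0.0148) and by 0.67 with i-BET151 (SE 0.14, adjusted p = 0.00362), with no overlap between treated and DMSO libraries. The differences were −0.56 and −0.68 in replicates 1 and 2 and −0.31 and −0.65 in replicate 3. Without DMSO replicate 3, or i-BET858 replicate 1 or 2, the adjusted p of i-BET858 rose above 0.05, to at most 0.0606.

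ADGRA3, formerly GPR125, is an orphan receptor linked to planar cell polarity that binds the scaffold DLG1. It lies at chr4:22345071-22516066. The levels at 4 h were 79.3, 91.0 and 67.5 CPM in DMSO, 64.0, 86.8 and 59.0 CPM with i-BET858 and 69.3, 78.4 and 71.0 CPM with i-BET151, which overlapped. The log2 differences were −0.18 and −0.21 in replicates 1 and 2 and −0.19 and 0.07 in replicate 3. At 24 h it held 86.0, 76.4 and 62.1 CPM in DMSO, 113, 106 and 81.1 CPM with i-BET858 and 109, 111 and 89.8 CPM with i-BET151. The lowest i-BET151 library lay just above the highest DMSO library, and the rise passed the adjusted p (log2 0.45 ± 0.15 (SE), adjusted p = 0.0439). That p rose above 0.05, to at most 0.144, without DMSO replicate 2 or 3 or replicate 1 or 2 of either inhibitor, and to 0.104 with total library size. With i-BET858 the log2 difference was 0.38 ± 0.15 (SE, adjusted p = 0.0672), and the adjusted p was 0.00174 with the replicate number as a block. Replicate 3 gave 0.38 and 0.53, and replicates 1 and 2 gave 0.40 with either inhibitor.

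ADGRV1, formerly VLGR1, is the longest adhesion GPCR and part of the Usher protein complex of hair cells and photoreceptors. It lies at chr5:90529344-91164437 and was the lowest receptor per kilobase in DMSO. Levels at 4 h were 3.56, 5.80 and 4.98 CPM in DMSO, 6.89, 10.4 and 5.0 CPM with i-BET858 and 7.12, 10.5 and 6.43 CPM with i-BET151. The log2 differences were 0.64 ± 0.31 (SE, adjusted p = 0.146) and 0.74 ± 0.31 (SE, adjusted p = 0.136), and the adjusted p was 0.0269 and 0.0145 with the replicate number as a block. In replicates 1 and 2 they were 0.89 (adjusted p = 0.0285) and 0.90 (adjusted p = 0.0409), whereas replicate 3 gave 0.0044 with i-BET858 and 0.37 with i-BET151. At 24 h ADGRV1 held 5.78, 5.22 and 2.96 CPM in DMSO, 37.1, 28.9 and 17.9 CPM with i-BET858 and 24.2, 27.2 and 14.1 CPM with i-BET151. It was up-regulated 5.86-fold with i-BET858 (log2 2.55 ± 0.34 (SE), adjusted p = 1.58e-04) and 4.62-fold with i-BET151 (log2 2.21 ± 0.33 (SE), adjusted p = 5.77e-04). The lowest treated library was above the highest DMSO library, and the rise was 2.56 and 2.18 in replicates 1 and 2 and 2.60 and 2.26 in replicate 3.

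Exons of ADGRL1, ADGRL3, ADGRE5 and ADGRV1 overlap genes on the opposite strand by 473, 153, 252 and 68 bases. The sources used here do not give the strand setting of the counts, so reads on those bases may come from either gene.

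The inhibitors were compared with each other directly at the same dose and time, as 1 pair at each of 2 times. No receptor was called between i-BET858 and i-BET151 by edgeR at 4 h, where 0.209% of genes were called and 0.971% passed on the adjusted p, and DESeq2 called 0 as well. Without adjustment, 1 of 10 had a p under 0.05 at 4 h, with no share of all genes given at that threshold. The 1 receptor was ADGRG1, with a log2 difference of 0.25 and a 95% interval of 0.01 to 0.50. ADGRF1 differed by 0.26, with an interval of −0.69 to 1.22 (adjusted p = 0.902), and ADGRF4 by 0.15, with an interval of −0.56 to 0.86 (adjusted p = 0.936). The intervals of ADGRF1 and ADGRF4 also hold differences of more than 1.5-fold. ADGRL2 was lower with i-BET858 than with i-BET151 in all 9 pairs of libraries (log2 −0.20, adjusted p = 0.483).

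At 24 h none of the 9 tested receptors was called between the inhibitors, where 0.0641% of genes were called and 0.210% passed on the adjusted p. Without adjustment, 3 of 9 had a p under 0.05, with no share of all genes given at that threshold, and DESeq2 called 0. ADGRG1 was higher with i-BET858 by a log2 difference of 0.40 (interval 0.18 to 0.63, adjusted p = 0.151), in all 9 pairs of an i-BET858 and an i-BET151 library. ADGRG6 was lower with i-BET858 by −0.76 (interval −1.18 to −0.34, adjusted p = 0.148) and ADGRL1 by −0.48 (interval −0.79 to −0.16, adjusted p = 0.216), each in all 9 pairs. With the replicate number as a block, the adjusted p of these 3 was 0.0231, 0.0281 and 0.0179, and each difference stayed below 2-fold. The separation in all 9 pairs is a description, and no share of all genes is given for it. For ADGRF1 the log2 difference was −1.13 with an interval of −1.79 to −0.47, which is a description. ADGRF4 (−0.83, interval −1.83 to 0.16) and ADGRV1 (0.34, interval −0.34 to 1.03) had wide intervals, and ADGRL2 a narrow one (−0.04, interval −0.26 to 0.19).

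The change of each effect from 4 to 24 h was tested over all 18 libraries, as the interaction of inhibitor and time. With i-BET858, 3 of 9 tested receptors were called, beside 15.1% of all genes, and 7 of 9 passed the adjusted p alone, beside 27.2%. ADGRF4 fell further (log2 −1.84 ± 0.52 (SE), adjusted p = 0.0123) and ADGRV1 rose more (1.95 ± 0.48 (SE), adjusted p = 0.00529). The effect on ADGRL1 moved towards lower levels (−1.11 ± 0.30 (SE), adjusted p = 0.00902), from a log2 difference of −0.02 at 4 h. The changes of ADGRG1 (−0.62), ADGRE5 (−0.75) and ADGRG6 (−0.96) were also towards lower levels and passed the adjusted p. ADGRL2 changed the other way by 0.70 ± 0.14 (SE, adjusted p = 0.00133). The ADGRL1 change was −0.96 without DMSO replicate 1 at 4 h and −0.87 without i-BET858 replicate 3 at 4 h, below 2-fold. The adjusted p of ADGRG6 was 0.0487 and rose above 0.05 without any of 12 libraries, to at most 0.145, and its change passed 2-fold and the adjusted p without any of 4 others.

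With i-BET151, 1 of 9 was called, beside 6.70% of all genes, and 4 of 9 passed the adjusted p alone, beside 13.8%. The call was ADGRV1 (log2 1.49 ± 0.48 (SE), adjusted p = 0.0450), which lost it without any of 10 libraries, from DMSO and both inhibitors, with an adjusted p of up to 0.122. ADGRG1 (−0.80 ± 0.15 (SE), adjusted p = 0.00215), ADGRE5 (−0.73 ± 0.18 (SE), adjusted p = 0.0120) and ADGRL2 (0.51 ± 0.14 (SE), adjusted p = 0.0238) changed in the same direction as with i-BET858. The adjusted p of ADGRL2 rose above 0.05, to at most 0.0801, without DMSO replicate 3 at 24 h, DMSO replicate 1 or 2 at 4 h, or i-BET151 replicate 2 at either time. With the replicate number as a block, 7 of 9 passed the adjusted p for i-BET151, with ADGRL1 (0.00207, from 0.128), ADGRL3 (0.0160, from 0.0820) and ADGRA3 (0.00772, from 0.108) added. For i-BET858 it was 8 of 9, with ADGRA3 added (0.00338, from 0.0665). The shares of all genes above are without the block, so these counts cannot be set against them. The change of the effect from 4 to 24 h for ADGRF1, a description, was −4.31 (i-BET858) and −2.94 (i-BET151).

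**Figure D4:**
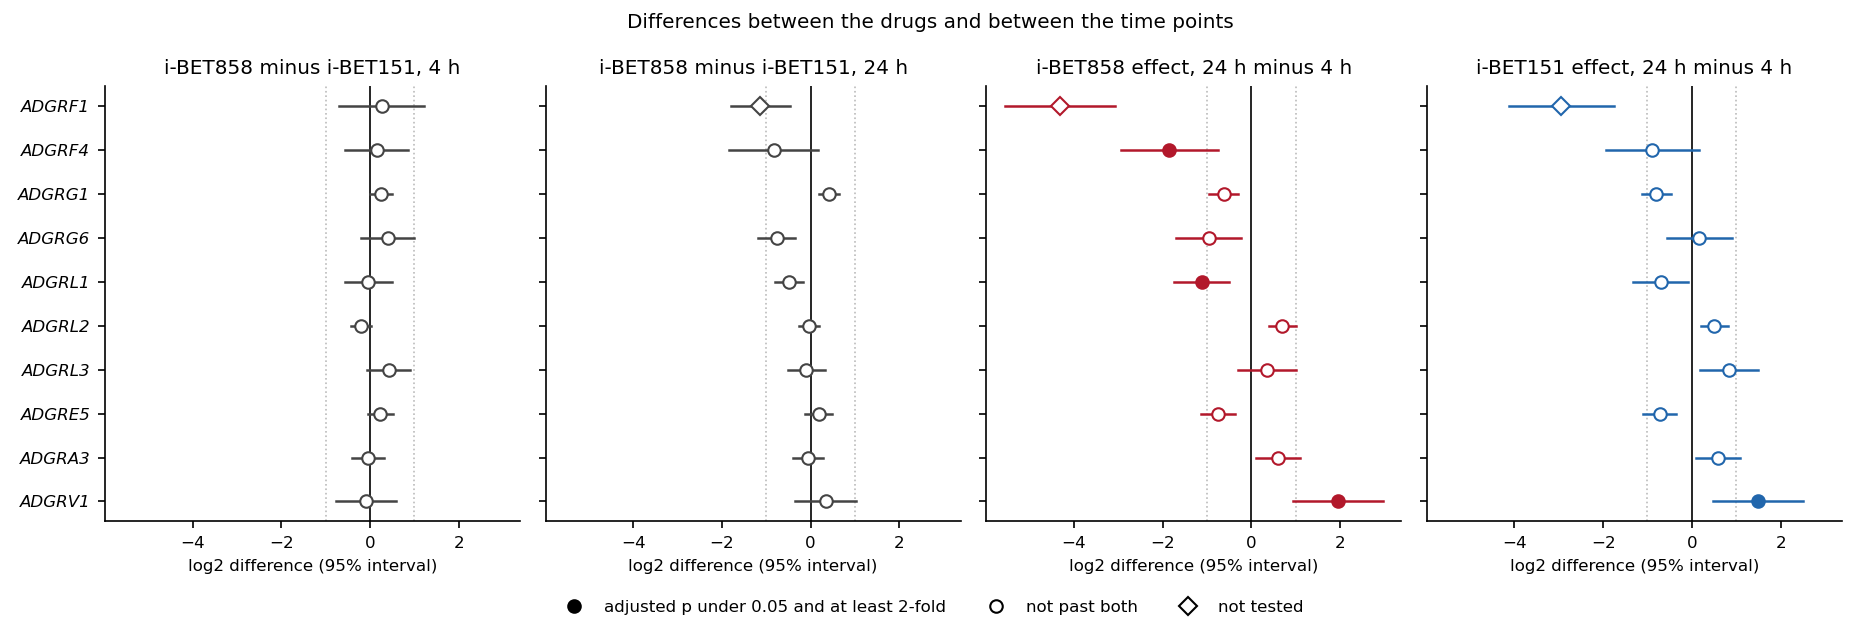
Log2 differences with 95% intervals (horizontal axis) for each receptor. The left panels show i-BET858 against i-BET151 at 4 and 24 h, and the right panels show the change of each inhibitor's effect from 4 to 24 h. Filled circles passed the adjusted p and the 2-fold threshold (dotted lines), and diamonds mark ADGRF1, which was not tested there. No receptor is filled between the inhibitors, while ADGRF4 (−1.84), ADGRL1 (−1.11) and ADGRV1 (1.95) are filled for the i-BET858 effect and ADGRV1 (1.49) for the i-BET151 effect.

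Of the other 23 adhesion GPCR genes, 12 passed the low-count filter at both times and 11 at neither, and 2 of these had no count in any library. With i-BET858, 1 of 12 was called higher and 1 lower at each time, close to the shares over all genes (7.08% and 7.00% at 4 h, 7.65% and 11.2% at 24 h). The median log2 fold change of the 12 was 0.38 and 0.19 at 4 h and −0.38 and 0.10 at 24 h for i-BET858 and i-BET151. The lower one was ADGRF2, and the higher one was ADGRG5, with 0, 7 and 5 counts in DMSO and 38, 27 and 60 with i-BET858 at 4 h (log2 3.50 ± 0.86 (SE), adjusted p = 0.00930). At 24 h ADGRG5 held 5, 0 and 0 counts in DMSO and 14, 27 and 46 with i-BET858 (log2 3.81 ± 1.12 (SE), adjusted p = 0.0185). With i-BET151, ADGRF2 was the 1 lower call at 4 h, and ADGRF2 and ADGRF3 were the 2 at 24 h, beside 2.97% and 8.09% of all genes called lower. ADGRF3 held 1.60, 1.89 and 0.637 CPM in DMSO and 0.415, 0.274 and 0 CPM with i-BET151 at 24 h (log2 −2.57 ± 0.89 (SE), adjusted p = 0.0461).

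Of 21 listed binding partners of adhesion GPCRs, 18 were tested at each time, with median log2 fold changes of 0.48 and 0.05 at 4 h and −0.03 and −0.02 at 24 h for i-BET858 and i-BET151. With i-BET858 at 4 h, 2 were called higher and 1 lower, beside 7.08% and 7.00% of all genes, and with i-BET151 1 was higher and 1 lower, beside 4.12% and 2.97%. FLRT3, a latrophilin ligand named here after its values were seen, was the 1 of 18 partners called between the inhibitors at 4 h, beside 0.209% of all genes, with 27.2, 20.4 and 27.4 CPM for i-BET858 and 14.1, 10.2 and 9.89 CPM for i-BET151 (log2 1.14, adjusted p = 0.0309). At 24 h edgeR called 0 of 18 between the inhibitors, beside 0.0641% of all genes. An unadjusted p under 0.05 was found for 1, VANGL2, with no share of all genes given at that threshold.

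At 24 h, 1 partner of 18 was called higher and 3 lower with i-BET858, beside 7.65% and 11.2% of all genes, and 1 higher and 4 lower with i-BET151, beside 5.59% and 8.09%. TENM1, a teneurin, rose from 0.575, 0.640 and 0.159 CPM to 2.70, 2.0 and 3.01 CPM with i-BET858 (log2 2.45, adjusted p = 0.00147) and by log2 2.05 with i-BET151 (adjusted p = 0.00543). FLRT2, another latrophilin ligand, fell from 2.45, 1.68 and 2.96 CPM to 0.479, 0.222 and 0 CPM with i-BET858 (log2 −3.32, adjusted p = 0.00990) and by log2 −3.41 with i-BET151 (adjusted p = 0.0119). TGM2, the transglutaminase that binds ADGRG1, held 72.3, 76.5 and 51.2 CPM in DMSO and 26.6, 21.8 and 14.5 CPM with i-BET858 (log2 −1.70, adjusted p = 1.10e-04), and fell by log2 −1.49 with i-BET151 (adjusted p = 3.84e-04). VANGL2, a planar cell polarity protein, fell by log2 −1.85 (adjusted p = 6.91e-06) and −1.36 (adjusted p = 7.80e-05).

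The 25 listed G protein genes (Gα subunits, RhoA and its exchange factors, adenylyl cyclases, phospholipases Cβ and arrestins) were all tested, with median log2 fold changes between −0.02 and 0.05. At 4 h, 1 was called, higher with i-BET858, where 7.08% of all genes were, while the adjusted p alone passed for 4 higher and 1 lower with i-BET858 and for 3 higher and 1 lower with i-BET151, beside 30.8% and 16.2% of all genes. The call was GNAI2, an inhibitory Gα subunit, with 289, 251 and 291 CPM in DMSO and 530, 555 and 590 CPM with i-BET858 (log2 1.02, adjusted p = 3.40e-05). At 24 h, 4 of 25 were called lower with i-BET858 and 3 with i-BET151, beside 11.2% and 8.09% of all genes. The adjusted p alone passed for 15 with i-BET858 (8 higher and 7 lower), beside 41.7% of all genes, and for 13 with i-BET151 (7 higher and 6 lower), beside 33.8%. ADCY7, an adenylyl cyclase, fell from 8.72, 8.69 and 7.35 CPM to 1.24, 1.19 and 1.37 CPM with i-BET858 (log2 −2.74, adjusted p = 1.07e-05) and by log2 −2.10 with i-BET151 (adjusted p = 8.40e-05). ARRB1, an arrestin, fell by log2 −1.64 (adjusted p = 0.00303) and −1.31 (adjusted p = 0.0127), and PLCB1, a phospholipase, by −1.43 (adjusted p = 0.00237) and −1.10 (adjusted p = 0.0124). ADCY3 fell by log2 −1.28 with i-BET858 (adjusted p = 3.08e-05) and by −0.71, below 2-fold, with i-BET151 (adjusted p = 0.00189).

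The pattern of ADGRF1 over the 18 libraries was compared with that of 18153 other genes by the Pearson correlation of log2 CPM, as a description. The libraries share conditions and replicate numbers, so the points are not independent. The 5 most alike genes were NYNRIN (r = 0.987), NFE2L3 (0.985), CD47 (0.980), NSMAF (0.980) and MGAT3 (0.978). NYNRIN held 39.3 CPM in DMSO, 7.97 CPM with i-BET858 and 10.3 CPM with i-BET151 at 24 h, as means. The most opposed were INTS15 (−0.985), POLG (−0.981), P3H1 (−0.980), PDE6D (−0.976) and FXR2 (−0.975). In replicates 1 and 2 only, 1 of the 5 most alike genes was again among the top 5. Among the receptors, the correlation with ADGRF1 was 0.888 for ADGRF4, 0.864 for ADGRG1, 0.863 for ADGRL1, 0.813 for ADGRG6, 0.725 for ADGRE5 and 0.07 for ADGRL2. It was −0.945 for ADGRV1, −0.698 for ADGRL3 and −0.693 for ADGRA3. Counted from the most alike of the 18153 genes, ADGRF4, ADGRG1 and ADGRL1 took places 588, 842 and 851, and ADGRV1 place 18082. The pattern includes the fall at 24 h by which ADGRF1 was chosen.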

How the data were processed

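OVCAR-3 poly-A RNA was read on a NovaSeq, paired-end. Raw gene counts, made by the authors with STAR on GRCh38, were deposited without normalisation or a filter on genes. The annotation and the strand setting are not given in the sources used here. Symbols and positions came from GENCODE 44, which held 58472 of the 58825 identifiers. The members and lists were chosen with earlier results of these data known.

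DMSO, i-BET858 and i-BET151 were fitted together at each time with edgeR 4.0.16 in R 4.3.3 (TMM factors of 0.893 to 1.09, edgeR's low-count filter, quasi-likelihood test, Benjamini-Hochberg adjustment over all genes), and the interaction and the DMSO groups in a fit of all 18 libraries. CPM are TMM-normalised, and log2 CPM had a prior count of 2. A call needed both an adjusted p under 0.05 and a 2-fold difference. All 10 receptors are named. Of each list, at most 5 genes called against DMSO are named, those with the largest change. One gene of the list of binding partners that this rule would name is not reported here. The authors' own normalisation and test was DESeq2, used here as an alternative (version 1.42.0). Other alternatives were DESeq2's size factors, total library size, no filter, at least 10 counts in every library, other sets of samples in the fit, a replicate block, replicates 1 and 2 only, each library left out, the adjusted p alone and a fold change of at least 1.5. Scripts were tested on simulated data.

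Replicate numbers come from the labels. Deviations from the group means had correlations of 0.125 to 0.344 at 4 h and 0.145 to 0.330 at 24 h between libraries of 1 number (9 pairs each), and between other libraries −0.311 to 0.216 and −0.304 to 0.285 (18 pairs each). These ranges overlapped. The medians were 0.274 at 4 h and 0.263 at 24 h for libraries of 1 number, and −0.204 and −0.232 for other libraries. The main tests did not use the replicate number, and values with it as a block are given beside them. Whether the numbers pair the libraries, or replicate 3 alone stands apart, was not tested.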

Additional observations from a re-analysis of the deposited data

Results flagged for a closer look

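These receptors were marked because the effect of an inhibitor differed between 4 and 24 h by a test of the difference itself, the drug-by-time interaction, with an adjusted p under 0.05. For i-BET858 the effect moved towards lower levels for ADGRF4 (log2 −1.84), ADGRL1 (−1.11), ADGRG6 (−0.96), ADGRE5 (−0.75) and ADGRG1 (−0.62), and towards higher levels for ADGRV1 (1.95) and ADGRL2 (0.70). For i-BET151 it moved lower for ADGRG1 (−0.80) and ADGRE5 (−0.73) and higher for ADGRV1 (1.49) and ADGRL2 (0.51). The adjusted p of ADGRG6 was 0.0487 and reached 0.145 when a library was left out. That of ADGRV1 with i-BET151 was 0.0450 and reached 0.122.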

How the results depend on the processing

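Of 1824 values of the receptors under alternatives, 1747 kept their direction and their call (adjusted p and 2-fold together), 21 lost a call, 7 gained one and 49 changed sign. The values of ADGRF1 without a test count by direction and size only, and an adjusted p that crossed 0.05 below 2-fold counts as no change here. None of the sign changes concerned a receptor called in that comparison. With the replicate block, the number of receptors called was the same in every comparison, 2 with each inhibitor at 4 h and 4 with i-BET858 and 3 with i-BET151 at 24 h. The adjusted p of the receptors named beside the results was smaller with it.

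The number called changed with the threshold. The adjusted p alone gave 4 with i-BET151 at 4 h, 7 with i-BET858 and 7 with i-BET151 at 24 h, and 7 and 4 for the changes of the i-BET858 and i-BET151 effects from 4 to 24 h. A fold change of at least 1.5 gave 6 with i-BET151 at 24 h and 7 and 3 for these changes, with no share of all genes given at that threshold. Total library size gave 0 for the change of the i-BET151 effect. Leaving out a library gave 1 to 2 calls with either inhibitor at 4 h and 0 to 1 for the change of the i-BET151 effect, and 2 to 4 for that of the i-BET858 effect, where ADGRG6 was gained and ADGRL1 lost. Replicates 1 and 2 only kept 1 of the 5 genes most like ADGRF1. The cause was not tested.

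Sign changes are given as log2 values. ADGRL1 with i-BET151 at 4 h was −0.0409 with total library size. ADGRL2 at 24 h was 0.0073 with i-BET858 in the fit of all 18 libraries. With i-BET151 it was −0.0145 with DESeq2, −0.0149 with its size factors, −0.0012 with at least 10 counts, −0.0450 in replicates 1 and 2 and −0.0300 with total library size. Between the inhibitors, replicates 1 and 2 gave 0.0389 for ADGRA3 at 4 h, and 0.0080 for ADGRL3 and 4.3e-06 for ADGRA3 at 24 h. Between the DMSO groups they gave −0.0386 for ADGRF1 and 0.23 for ADGRV1, and total library size gave 0.0068 for ADGRV1.

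With a library left out, the ranges that crossed 0 were as follows. At 4 h against DMSO, ADGRL1 ranged from −0.29 to 0.21 with i-BET858 and from −0.15 to 0.26 with i-BET151, ADGRL3 from −0.11 to 0.16 and ADGRE5 from −0.0010 to 0.14 with i-BET151. At 24 h, ADGRL2 ranged from −0.0867 to 0.0283 with i-BET858 and from −0.0591 to 0.0462 with i-BET151. Between the inhibitors at 4 h, the ranges were −0.17 to 0.73 for ADGRF1, −0.0422 to 0.41 for ADGRF4, −0.31 to 0.13 for ADGRL1, −0.24 to 0.0561 for ADGRA3 and −0.42 to 0.14 for ADGRV1. At 24 h they were −0.0769 to 0.0276 for ADGRL2 and −0.16 to 0.0709 for ADGRA3. Between the DMSO groups they were −0.17 to 0.17 for ADGRF1, −0.0270 to 0.11 for ADGRF4, −0.0662 to 0.33 for ADGRL1, −0.20 to 0.0364 for ADGRA3 and −0.23 to 0.20 for ADGRV1. Depth limits ADGRF1 and ADGRF4 after 24 h, where treated libraries held 7 to 46 counts, and ADGRF2, ADGRF3, ADGRG5 and TDRD6, where some libraries held 0.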
